A study of Mus musculus with 27 samples.

Results

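The glycolysis and hypoxia genes examined here were 10 of the 50559 genes listed in a count table of mouse thyroid gland organoids (mTGOs). They were Slc2a1, Hk2, Pfkp, Aldoa, Pgk1, Eno1, Ldha, Car9, Vegfa and Bnip3. The rule lists them by name, as a reading of glucose metabolism and oxygen supply while organoids grow, and holds no measured value. However, these genes and all gene lists below were chosen with earlier results of these data known. Their counts beside the shares of all genes are therefore descriptive and no independent test. Organoids grown in Matrigel from thyroid gland cells of C57BL/6 mice 8-12 weeks old were left non-irradiated or were irradiated with photons at 2, 4 or 7 Gy after 5 days of culture. All groups were kept in the same medium with EGF, FGF2, the kinase inhibitor Y27632 and B27, at one temperature and CO2 level, and the sources used here give no oxygen level. RNA was sequenced at day 5 without irradiation, and at days 7 and 11 at 0, 2, 4 and 7 Gy, with 3 libraries in each of the 9 groups and 27 libraries in all. The 3 libraries of a group came from cultures named mTG11, mTG12 and mTG14, the same 3 in every group. The p-values measure the spread between libraries within groups and ignore this pairing, unless the culture is named as a replicate block. For a slope over dose, the spread also holds departures from a straight line. All 10 genes passed the filter on low counts in every fit.

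Library totals ranged from 2528866 to 5723150 counts, so that 3 counts, taken as the smallest detectable amount, stood for 0.524 to 1.19 CPM (the count of a gene relative to the total of its library), a limit that covers counting error only. Of 8 thyroid follicular markers, Foxe1 (20.3 to 43.0 CPM) and Nkx2-1 (6.32 to 21.5 CPM) were above this amount in every library, whereas Slc5a5, the iodide transporter, was at or under it in 27 of 27 libraries and Tshr, the receptor for thyroid-stimulating hormone, in 26. The basal keratins Krt5 (1996 to 6433 CPM) and Krt14 (764 to 7530 CPM) were high throughout. The 8 thyroid markers, Tg (thyroglobulin) among them, summed to 32.3 to 67.9 CPM over the 27 libraries. The label of thyroid gland tissue thus rested on Foxe1 and Nkx2-1, at low levels beside these keratins, and not on the iodide transporter or this receptor. It did not extend to all thyroid transcription factors of the list. Pax8 had too few counts to be tested over the doses at day 7, and Hhex over the days without irradiation. Endothelial markers were nearly absent: their 6 genes summed to at most 12.6 CPM, Emcn was at 0 in 27 libraries, and the VEGF receptor gene Kdr was at or under the detectable amount in all of them. In bulk RNA of this kind, fewer cells of a type and less RNA per cell cannot be told apart.

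Glucose enters epithelial cells through transporters such as the product of Slc2a1, and the enzymes of glycolysis split it into pyruvate, which lactate dehydrogenase can turn into lactate. When oxygen is scarce, the prolyl hydroxylases that mark hypoxia-inducible factor (HIF) for destruction lose activity, and HIF with its partner Arnt binds DNA at short sites with the core ACGTG or GCGTG. Genes of glycolysis, the carbonic anhydrase Car9, the mitophagy gene Bnip3 and the vascular growth factor Vegfa are textbook HIF targets, and in the thyroid gland VEGF helps maintain the dense capillary bed around the follicles.

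Promoter windows from RefSeq, 250 bases before to 50 after each start (table of GRCm38.p6, each window found once and without mismatch in GRCm39), were searched for ACGTG on both strands, and all 10 genes had at least 1 window. The letters occurred in 8 of the 10 genes, all but Pfkp and Eno1, and in 21.8% of the 27025 genes of the table. A gene was counted if any of its windows held the letters, and Eno1, Aldoa, Ldha and Vegfa had more than 1 window. By window the share was 19.6% of the 32851 in the table. In Vegfa and Aldoa the letters lay only in windows of downstream starts. The second core, GCGTG, occurred in 6 of the 10 genes, Pfkp and Eno1 among them, and in 35.2% of all genes. The stretches below are from Car9 and Bnip3, which changed most over days and dose, from Slc2a1 and Pgk1, which stand for glucose uptake and the glycolytic enzymes, and from Hk2, which varied least over the groups. They are written 5′ to 3′ on the strand of the gene, with ACGTG or its complement CACGT in capitals. In Bnip3 the match lies in the palindrome CACGTG, which is counted on both strands. The stretches of Car9 and Slc2a1 overlap an exon of the GENCODE annotation. A match describes the letters and is not a measured binding site.
Car9, chr4:43506996-43507024, plus strand: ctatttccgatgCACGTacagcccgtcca
Bnip3, chr7:138511310-138511370, minus strand: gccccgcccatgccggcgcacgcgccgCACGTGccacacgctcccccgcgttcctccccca
Pgk1, chrX:105230547-105230607, plus strand: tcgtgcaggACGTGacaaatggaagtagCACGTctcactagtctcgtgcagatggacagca
Slc2a1, chr4:118965894-118965922, plus strand: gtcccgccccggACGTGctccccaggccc
Hk2, chr6:82751471-82751499, minus strand: aatgagcacatcCACGTcactgtccgggg

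Without irradiation, all of the genes but Car9 and Hk2 followed 1 of 3 courses. Pfkp, Aldoa, Pgk1 and Bnip3 were highest at day 7, Slc2a1, Eno1 and Ldha were high at days 5 and 7 and low at day 11, and Vegfa rose at each step. Car9 rose to day 7 and overlapped that level at day 11, and Hk2 had no called change. From day 5 to day 7, 7 of the 10 genes rose and 0 fell (adjusted p under 0.05, edgeR), against 12.0% of all 18442 genes tested that rose and 9.62% that fell, and their median log2 change was 0.73 against 0.04 for all genes. From day 7 to day 11, 1 of the 10 rose and 7 fell, against 9.57% and 11.7% of all genes, with a median of -0.97 against 0.00. From day 5 to day 11, 3 rose and 4 fell, against 21.3% and 20.1% of all genes. Without TMM factors (edgeR's scaling between libraries) the median of all genes moved from 0.04 to -0.11 for day 7 against day 5 and from 0.06 to -0.08 for day 11 against day 5. The calls over all genes moved from 2211 higher and 1775 lower to 1531 and 2740, and from 3921 and 3700 to 3049 and 4591. Log2 changes below are on the TMM scale and differ a little from ratios of CPM.

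**Figure D1:**
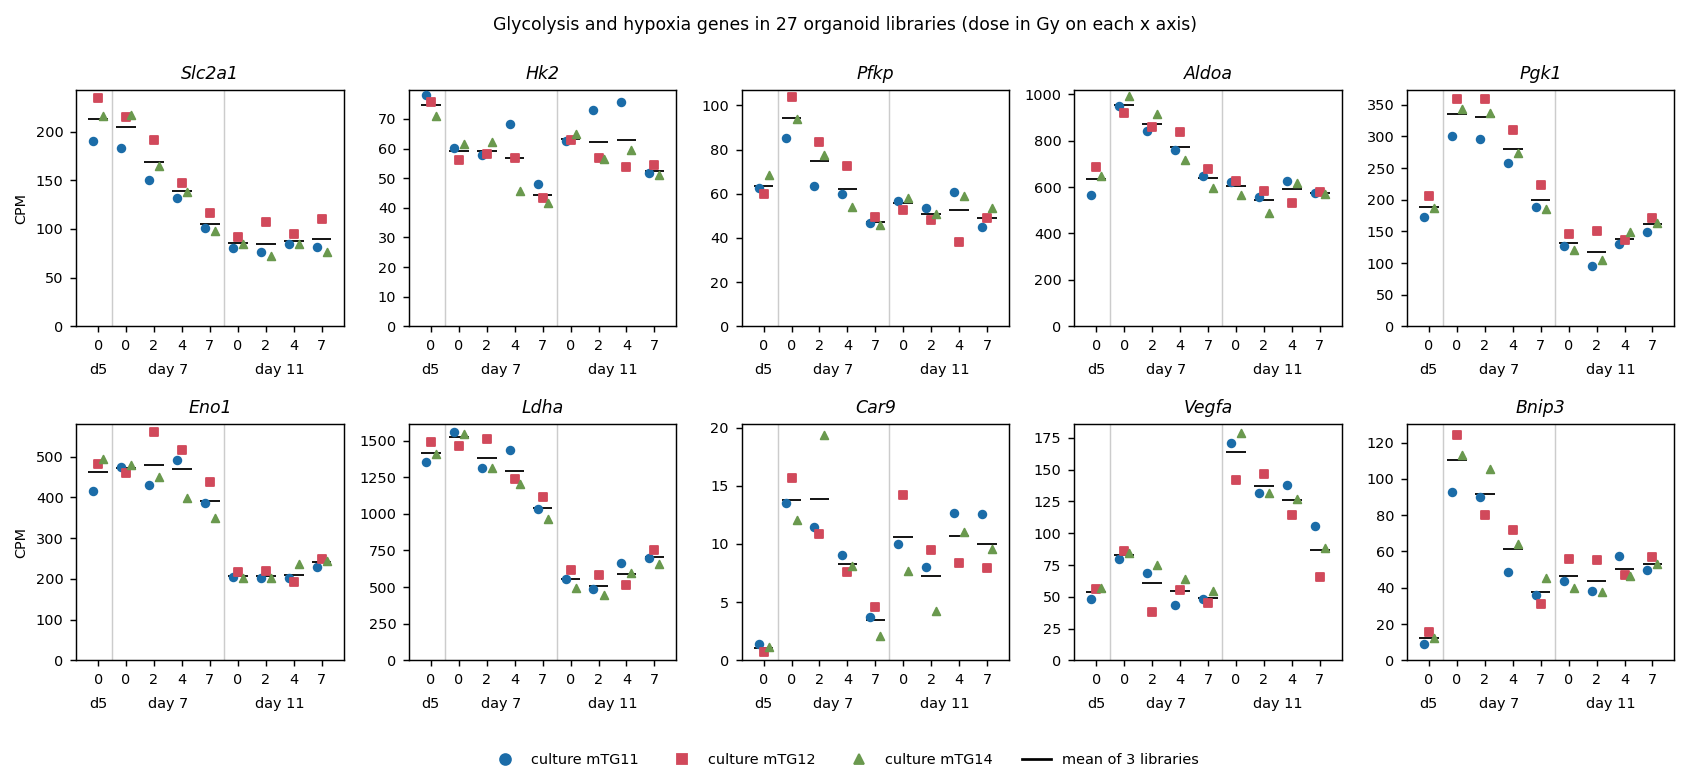
CPM of each of the 10 genes in each library (y axes, from 0) by dose in Gy within day 5, day 7 and day 11 (x axes), with 1 marker per library, its shape and colour giving the culture, and a bar at the mean of 3 libraries. Car9 and Bnip3 sit near the bottom at day 5 and highest at day 7 in the 0 and 2 Gy groups, Slc2a1, Pfkp and Aldoa step down with dose at day 7, and Vegfa is highest at day 11 without irradiation.

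Car9 encodes a cell-surface carbonic anhydrase that takes part in pH control and is a standard marker of hypoxia (GRCm39 chromosome 4, 43506966 to 43513729, plus strand). At day 5 it had 1.38, 0.760 and 1.14 CPM in cultures mTG11, mTG12 and mTG14, which were 4, 2 and 4 counts. At day 7 it had 13.5, 15.6 and 12.1 CPM, and at day 11 it had 10.0, 14.2 and 7.70 CPM. All libraries of days 7 and 11 lay above all of day 5, while those of days 7 and 11 overlapped. The log2 change from day 5 to day 7 was 3.74 (standard error 0.33, adjusted p = 2.45e-05), and that from day 7 to day 11 was -0.38 (standard error 0.21, adjusted p = 0.248). The size of the rise rests on the few counts at day 5.

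Bnip3 encodes a mitochondrial protein that directs mitochondria to autophagy (chromosome 7, 138490690 to 138511253, minus strand). It had 9.19, 15.7 and 12.3 CPM at day 5, 93.0, 124 and 113 CPM at day 7, and 43.9, 56.0 and 40.0 CPM at day 11. The 3 days did not overlap, with day 7 the highest. Bnip3 rose 9.94-fold to day 7 (log2 change 3.31, standard error 0.19, adjusted p = 1.33e-06) and fell by 1.25 on the log2 scale to day 11 (standard error 0.15, adjusted p = 0.000126), where it stayed 4.18-fold above day 5 (adjusted p = 5.79e-06).

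Vegfa, the growth factor that draws blood vessels (chromosome 17, 46327919 to 46343309, minus strand), was the only one of the 10 that rose at both steps. Its values were 48.6, 55.9 and 56.7 CPM at day 5, 79.5, 85.9 and 84.5 CPM at day 7, and 171, 142 and 179 CPM at day 11. No 2 of these groups overlapped. The log2 change was 0.78 from day 5 to day 7 (standard error 0.12, adjusted p = 0.000808) and 0.98 from day 7 to day 11 (standard error 0.11, adjusted p = 7.03e-05). Over the whole course Vegfa rose 3.38-fold, in a culture where its endothelial receptor gene Kdr was not detectable at this depth. Flt1, another VEGF receptor gene, had enough counts to be tested. Its change from day 5 to day 7 was not called (log2 change 0.96, standard error 0.89, adjusted p = 0.50).

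Slc2a1 encodes the glucose transporter GLUT1 (chromosome 4, 118965908 to 118996365, plus strand). It had 190, 235 and 216 CPM at day 5, 183, 215 and 217 CPM at day 7, and 80.7, 92.0 and 84.7 CPM at day 11. Days 5 and 7 overlapped (log2 change 0.10, standard error 0.11, adjusted p = 0.577), and all day 11 libraries lay below both. The log2 change to day 11 was -1.26 from day 7 (standard error 0.11, adjusted p = 9.99e-06), a 2.40-fold fall. Without TMM factors the change from day 5 to day 7 was -0.06, with the opposite sign and not called either.

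The enzymes of the upper pathway did not move as a block. Hk2, the inducible hexokinase that traps glucose as glucose 6-phosphate, had 77.9, 75.6 and 71.0 CPM at day 5, 60.2, 56.2 and 61.5 CPM at day 7 and 62.4, 62.7 and 64.9 CPM at day 11, and none of its changes over days was called. Its log2 change from day 5 to day 7 was -0.19 (standard error 0.09, adjusted p = 0.186), although no library of day 7 reached those of day 5, and without TMM factors it was -0.33 and called (adjusted p = 0.0186). Pfkp, a subunit of the phosphofructokinase that commits sugar to glycolysis, had 62.7, 60.1 and 68.4 CPM at day 5, 85.5, 104 and 93.9 CPM at day 7 and 56.9, 52.8 and 58.0 CPM at day 11. It was highest at day 7 in every culture, with a rise of 0.71 (standard error 0.11, adjusted p = 0.000824) and a fall by 0.76 (standard error 0.11, adjusted p = 0.000375) on the log2 scale. Aldoa, the aldolase that cleaves the 6-carbon sugar, took the same course, from 567 to 685 CPM at day 5 to 918 to 992 CPM at day 7 and 564 to 624 CPM at day 11. Its log2 changes were 0.74 and -0.67 (adjusted p = 0.000105 and 0.000138), and day 11 against day 5 was not called for Pfkp (adjusted p = 0.778) or Aldoa (adjusted p = 0.504).

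In the lower pathway, Pgk1 peaked at day 7 and the other enzymes fell only after it. Pgk1, the kinase of the first ATP-forming step, had 172, 205 and 187 CPM at day 5, 301, 360 and 343 CPM at day 7, and 127, 146 and 121 CPM at day 11. These groups did not overlap. Its log2 changes were 0.99 (standard error 0.10, adjusted p = 7.22e-05) and -1.36 (standard error 0.11, adjusted p = 4.92e-06). Day 11 lay below day 5 by 0.37 on the log2 scale, a decrease by 0.37 that was called (adjusted p = 0.0136) and was lost without the day 5 library of mTG12 (adjusted p = 0.0506). Eno1, an enolase, ranged from 416 to 494 CPM at day 5 and from 461 to 479 CPM at day 7, then from 202 to 217 CPM at day 11, and fell by 1.18 from day 7 to day 11 on the log2 scale (standard error 0.08, adjusted p = 1.85e-06). Ldha, the lactate dehydrogenase subunit that favours lactate, had 1354, 1494 and 1406 CPM at day 5, 1556, 1464 and 1543 CPM at day 7 and 555, 615 and 495 CPM at day 11. Its fall of 2.75-fold from day 7 to day 11 had a log2 change of -1.46 (standard error 0.08, adjusted p = 4.50e-07). The small rise of Ldha from day 5 to day 7 (log2 change 0.25, adjusted p = 0.0436) came from groups that overlapped, and its call was lost in all 6 fits that left out 1 library (adjusted p from 0.0668 to 0.134), with DESeq2 (adjusted p = 0.0565) and without TMM factors (adjusted p = 0.463).

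**Figure D2:**
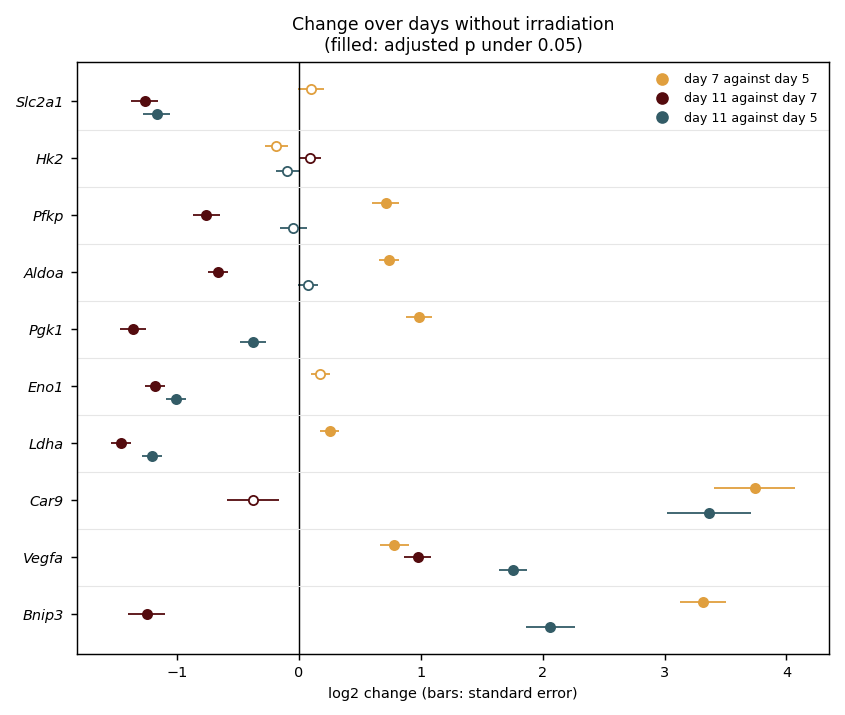
Log2 change of the 10 genes (y axis) between days without irradiation (x axis, on the TMM scale), with 1 colour per pair of days, bars for the standard error and filled points for an adjusted p under 0.05 in edgeR. Car9 and Bnip3 have the largest rises, at 3.74 and 3.31, Vegfa is the only gene with filled points to the right at both steps, and Hk2 has none filled.

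Proliferation markers moved over the same days. All 6 of them (Mki67, Top2a, Ccnb1, Cdk1, Birc5, Aurka) fell from day 5 to day 7 and from day 7 to day 11, against 9.62% and 11.7% of all genes called lower. Their summed level ranged from 854 to 1012 CPM at day 5, from 424 to 519 CPM at day 7 and from 106 to 123 CPM at day 11, with none at 0. The 6 epithelial markers summed to 12147 to 14538 CPM at day 5 and to 4817 to 6345 CPM at day 11. This sum was carried by the abundant basal keratins, since 3 of the 6 rose and 2 fell (21.3% and 20.1% of all genes, median log2 change 0.81). The 6 fibroblast markers summed to 30.3 to 111 CPM at day 5 and to 5.24 to 37.8 CPM at day 11. Their part in the changes of the 10 genes was not tested.

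Irradiation lowered the genes at day 7. At 2 Gy 0 of the 10 were called by edgeR, against 0.124% of all 19346 genes in either direction, with 3 at an unadjusted p under 0.05, all lower, and 0 called by DESeq2. At 4 Gy 4 of the 10 fell and 0 rose, against 0.656% and 0.972% of all genes. At 7 Gy 8 of the 10 fell and 0 rose, against 3.75% and 3.2% of all genes, with a median log2 change of -0.76 against 0.01. In all 10 genes, the 3 libraries at 7 Gy lay below the 3 at 0 Gy, which was true of 12.6% of all genes. With a slope over the 4 doses, 9 of the 10 fell and 0 rose, against 4.72% and 3.9% of all genes. With the culture as a replicate block the calls at 4 Gy were 6 in place of 4, and over all genes 139 in place of 24 at 2 Gy, 1010 in place of 315 at 4 Gy and 2206 in place of 1345 at 7 Gy.

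Car9 fell most. At day 7 it had 13.5, 15.6 and 12.1 CPM without irradiation, 11.5, 10.9 and 19.4 CPM at 2 Gy, 9.04, 7.58 and 8.15 CPM at 4 Gy and 3.76, 4.63 and 2.13 CPM at 7 Gy. The groups at 4 and 7 Gy lay apart from each other and from 0 Gy, and that at 2 Gy overlapped 0 Gy. At 7 Gy Car9 was 3.91-fold lower than at 0 Gy (log2 change -1.97, standard error 0.27, adjusted p = 0.000774), and at 4 Gy its log2 change of -0.79 was not called (adjusted p = 0.127). Bnip3 had 93.0, 124 and 113 CPM at 0 Gy, 89.9, 79.9 and 105 CPM at 2 Gy, 48.6, 71.9 and 64.1 CPM at 4 Gy, and 36.3, 31.2 and 45.3 CPM at 7 Gy. It stepped down with dose, without overlap between 0, 4 and 7 Gy. Its log2 change was -0.89 at 4 Gy (standard error 0.17, adjusted p = 0.0155) and -1.56 at 7 Gy (standard error 0.17, adjusted p = 0.00014), a 2.94-fold fall.

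Slc2a1 fell in steps from 183, 215 and 217 CPM at 0 Gy to 150, 192 and 165 CPM at 2 Gy, 132, 147 and 138 CPM at 4 Gy and 101, 116 and 98.2 CPM at 7 Gy. Within each culture every dose lay below the dose before it. The log2 change of this transporter gene was -0.61 at 4 Gy (standard error 0.11, adjusted p = 0.0115) and -0.97 at 7 Gy (standard error 0.11, adjusted p = 0.000152). Pfkp, from 85.5, 104 and 93.9 CPM at 0 Gy to 46.6, 49.3 and 46.0 CPM at 7 Gy, fell 2.00-fold (adjusted p = 0.00026). Aldoa fell by 0.58 on the log2 scale (standard error 0.08, adjusted p = 0.000481), to between 595 and 678 CPM, which overlapped its level at day 5. Pgk1, at 189, 224 and 185 CPM at 7 Gy, fell by 0.76 (standard error 0.11, adjusted p = 0.000774), and Ldha, at 1036, 1116 and 967 CPM, by 0.56 (standard error 0.09, adjusted p = 0.00199). These 5 calls at 7 Gy and those of Car9 and Bnip3 stood in all 6 fits that left out 1 library.

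Hk2 and Eno1 were lower at 7 Gy without passing the test. Hk2, with 47.9, 43.4 and 41.8 CPM at 7 Gy, had a log2 change of -0.43 (standard error 0.12, adjusted p = 0.053), which was called with the replicate block (adjusted p = 0.0259). Eno1, with 386, 438 and 350 CPM, had a log2 change of -0.28 (standard error 0.11, adjusted p = 0.165), and was the only one of the 10 whose slope over dose was not called (adjusted p = 0.113), though it was with the block (adjusted p = 0.0424). Hk2 fell by 0.06 per Gy on the log2 scale (adjusted p = 0.0343), a call lost without the 0 Gy library of mTG14 (adjusted p = 0.0824) or any 7 Gy library (adjusted p = 0.0598 without mTG11, 0.123 without mTG12 and 0.0983 without mTG14).

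Vegfa at day 7 had 79.5, 85.9 and 84.5 CPM at 0 Gy, 68.8, 38.1 and 74.9 CPM at 2 Gy, 43.7, 55.3 and 63.8 CPM at 4 Gy and 48.6, 45.2 and 54.3 CPM at 7 Gy. All irradiated libraries lay below those at 0 Gy, and the 3 doses overlapped. The log2 change at 7 Gy was -0.76 (standard error 0.20, adjusted p = 0.0355), and the call was lost in all 6 fits that left out 1 library (adjusted p from 0.0562 to 0.13). At 4 Gy the log2 change of -0.66 was not called (adjusted p = 0.13), but it was with the replicate block (adjusted p = 0.0197), as was that of Pgk1, -0.30 (adjusted p = 0.182, and 0.0259 with the block). The slope of Vegfa over dose at day 7 was -0.10 per Gy (adjusted p = 0.0311), lost without the 0 Gy library of mTG11, mTG12 or mTG14 or the 7 Gy library of mTG11 or mTG12 (adjusted p from 0.0585 to 0.103).

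The 4 calls at 4 Gy were less stable than those at 7 Gy other than that of Vegfa. Slc2a1 lost its call without the 0 Gy library of mTG14 (adjusted p = 0.0553) or the 4 Gy library of mTG11 (adjusted p = 0.0636). Pfkp (log2 change -0.65, adjusted p = 0.0136) lost it without these libraries (adjusted p = 0.0528 and 0.0657) or the 4 Gy library of mTG14 (adjusted p = 0.0564). Bnip3 lost it without the 0 Gy library of mTG12 or mTG14 (adjusted p = 0.0588 and 0.0649) or the 4 Gy library of mTG11 (adjusted p = 0.0724). Aldoa (log2 change -0.36, adjusted p = 0.0305) kept it in 1 of 6 fits, without the 0 Gy library of mTG12 (adjusted p up to 0.121 in the other 5), and also lost it without TMM factors (adjusted p = 0.0945).

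**Figure D3:**
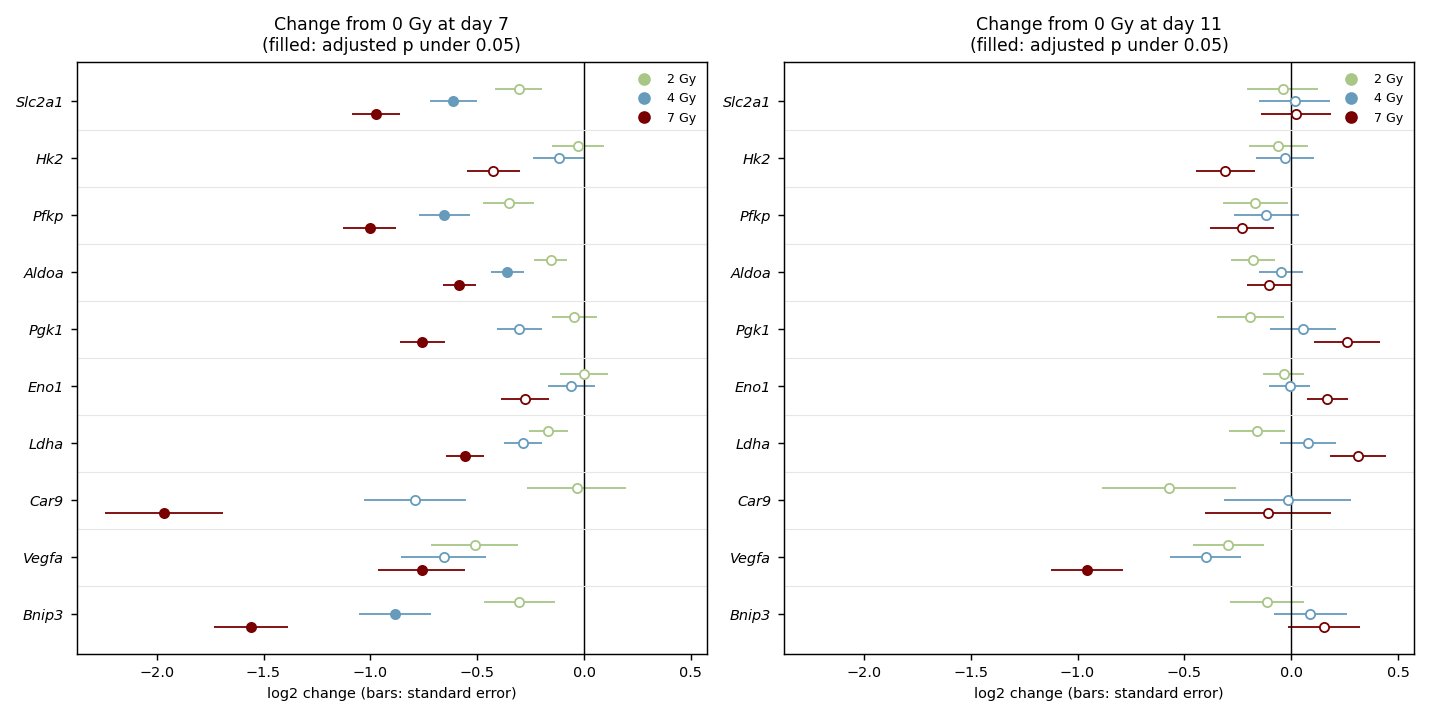
Log2 change of the 10 genes (y axis) from 0 Gy (x axis, TMM scale) at 2, 4 and 7 Gy, at day 7 (left) and day 11 (right), with bars for the standard error and filled points for an adjusted p under 0.05 in edgeR. At day 7 the points move left with dose, to -1.97 for Car9, and at day 11 the one filled point is Vegfa at 7 Gy, at -0.95, with Car9 at 2 Gy the next farthest from 0, at -0.57.

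At day 11 Vegfa was the only one of the 10 genes with a called change at any dose. At 2 Gy and at 4 Gy 0 of the 10 were called by edgeR or DESeq2, against 0.0% and 0.00502% of all 19901 genes in either direction, and at an unadjusted p under 0.05 there were 0 at 2 Gy and 1, lower, at 4 Gy. Over all genes at 2 Gy, 1157 had an unadjusted p under 0.05 and DESeq2 called 1. At 7 Gy 1 of the 10 fell and 0 rose, against 0.462% and 1.06% of all genes. With the replicate block these calls on the 10 genes did not change, while those over all genes rose from 0 to 72 at 2 Gy, from 1 to 238 at 4 Gy and from 302 to 1296 at 7 Gy. Bnip3, at 43.9, 56.0 and 40.0 CPM at 0 Gy and 49.6, 56.8 and 53.0 CPM at 7 Gy, had a log2 change of 0.15 (standard error 0.17, adjusted p = 0.757). Car9, at 12.6, 7.92 and 9.56 CPM at 7 Gy, overlapped 0 Gy (log2 change -0.11, standard error 0.29, adjusted p = 0.924). At 2 Gy it had 8.06, 9.47 and 4.26 CPM, with a log2 change of -0.57 (standard error 0.31, adjusted p = 0.892). Ldha, at 702, 756 and 660 CPM at 7 Gy, lay above its 3 libraries at 0 Gy, but the log2 change of 0.31 was not called (standard error 0.13, adjusted p = 0.277). The same held for Pgk1, at 0.26 (adjusted p = 0.471), and Eno1, at 0.17 (adjusted p = 0.441), while Hk2 lay below 0 Gy at -0.31 (adjusted p = 0.306).

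Vegfa fell with dose at day 11. It had 171, 142 and 179 CPM at 0 Gy, 132, 147 and 132 CPM at 2 Gy, 138, 115 and 127 CPM at 4 Gy, and 106, 65.7 and 88.8 CPM at 7 Gy. The libraries at 7 Gy lay below those of all other doses, and overlapped the non-irradiated libraries of day 7. The log2 change at 7 Gy was -0.95 (standard error 0.17, adjusted p = 0.0142), a call lost without the 0 Gy library of mTG11 (adjusted p = 0.052) or mTG14 (adjusted p = 0.0747). The slope over dose was -0.13 per Gy (standard error 0.02, adjusted p = 0.00631), against 0.779% of all genes called lower and 1.73% called higher, and stood in all 12 fits that left out 1 library.

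The response to 7 Gy differed between the days for 7 of the 10 genes. For these the log2 change at day 11 was above that at day 7 by an interaction test over 24 libraries, against 2.2% of 21928 genes with such a difference and 0.807% with the opposite one. The difference was 1.88 for Car9 (standard error 0.43, adjusted p = 0.0132), 1.74 for Bnip3 (standard error 0.25, adjusted p = 0.000198), 1.05 for Pgk1 (standard error 0.19, adjusted p = 0.00185), 1.03 for Slc2a1 (standard error 0.20, adjusted p = 0.00397) and 0.90 for Ldha (standard error 0.16, adjusted p = 0.00157). These 5 genes span pH control, mitophagy, ATP formation, glucose uptake and lactate formation. Pfkp at 0.80 (adjusted p = 0.026) and Aldoa at 0.51 (adjusted p = 0.0215) were less stable. Pfkp kept its call in 4 of 12 fits that left out 1 library, namely those without mTG11 at 0 Gy of day 7, mTG14 at 0 Gy of day 11, or mTG11 or mTG12 at 7 Gy of day 11, with adjusted p up to 0.0676 in the other 8. Aldoa lost it without mTG14 at 0 Gy or 7 Gy of day 7 (adjusted p = 0.0891 and 0.0716) or mTG11 or mTG14 at 0 Gy of day 11 (adjusted p = 0.054 and 0.0664). The difference for Vegfa was -0.16 (standard error 0.28, adjusted p = 0.872, 2 standard errors on either side reaching from -0.71 to 0.39), and for Hk2 it was 0.15 (adjusted p = 0.804). With the replicate block 1153 genes in place of 660 were called, Eno1 among them (log2 difference 0.48, adjusted p = 0.0824 without the block and 0.0332 with it). Levels at 0 Gy enter the difference too, and their means were lower at day 11 than at day 7 for all 7 genes. The means at 7 Gy, day 7 then day 11, were 105 and 89.4 CPM for Slc2a1 and 640 and 575 CPM for Aldoa. They were 200 and 161 CPM for Pgk1, 1040 and 706 CPM for Ldha, and 47.3 and 49.1 CPM for Pfkp. For Car9 they were 3.50 and 10.0 CPM and for Bnip3 37.6 and 53.1 CPM. Day 11 was not tested against day 7 at 7 Gy.

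Proliferation markers moved with these differences too. Of the 6, 4 fell at 7 Gy at day 7 (3.75% of all genes), where their sum was 227 to 252 CPM against 424 to 519 CPM at 0 Gy. At day 11, 6 rose at 7 Gy (1.06% of all genes), where the sum was 260 to 289 CPM against 106 to 123 CPM at 0 Gy. The fibroblast markers summed to 45.9 to 113 CPM at 7 Gy and 21.0 to 108 CPM at 0 Gy at day 7, and to 16.2 to 74.7 CPM and 5.24 to 37.8 CPM at day 11. Endothelial markers stayed at or under 12.6 CPM. The part of proliferating cells in the changes of the 10 genes was not tested.

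The rest of the pathway was read from lists of genes. Of the 12 glycolytic enzymes that are not among the 10 genes, 6 rose and 1 fell from day 5 to day 7 (12.0% and 9.62% of all genes), 8 fell from day 7 to day 11 (11.7% of all genes), and 6 of 11 tested fell at 7 Gy at day 7 (3.75% of all genes). At 7 Gy at day 11, 0 were called by edgeR or DESeq2, with 2 at an unadjusted p under 0.05. Over all genes edgeR called 1.06% higher and 0.462% lower there. Their median log2 changes were 0.46, -0.69, -0.53 and 0.05, against 0.04, 0.00, 0.01 and 0.01 for all genes. Aldoc, the second aldolase of the list, rose by 1.29 from day 5 to day 11 (standard error 0.15, adjusted p = 2.09e-05) and fell by 1.59 at 7 Gy at day 7 (standard error 0.14, adjusted p = 3.12e-05). Ldhb, whose subunit favours pyruvate over lactate, rose by 2.34 from day 5 to day 11 (standard error 0.33, adjusted p = 0.000126), opposite to Ldha, which fell by 1.21 (adjusted p = 4.14e-07). Pgam1, a phosphoglycerate mutase, fell by 1.22 over the same days (adjusted p = 7.1e-06), and Eno3, the muscle enolase, by 1.59 (adjusted p = 0.0146), a call lost without the mTG12 library of day 5 (adjusted p = 0.076) or day 11 (adjusted p = 0.0552).

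Of 5 genes for glucose and lactate transport, 3 fell at 7 Gy at day 7 and 0 rose, against 3.75% and 3.2% of all genes, and 1 of the 3 was Slc2a1, counted above. Slc16a3, the lactate exporter MCT4, rose by 3.04 from day 5 to day 7 (standard error 0.28, adjusted p = 3.25e-05), fell by 2.25 to day 11 (adjusted p = 6.88e-05) and fell by 1.07 at 7 Gy at day 7 (standard error 0.19, adjusted p = 0.00465). Slc16a1, which encodes MCT1, fell by 1.29 from day 5 to day 11 (adjusted p = 5.59e-05), while Bsg, the chaperone of both, rose by 0.69 (adjusted p = 0.000173). The neuronal-type glucose transporter Slc2a3 was at or under the detectable amount in 22 libraries. Among 5 regulators of glycolysis, 0 were called at 7 Gy at either day by edgeR or DESeq2, with 1 at an unadjusted p under 0.05 at each day. Over all genes edgeR called 3.2% higher and 3.75% lower at 7 Gy at day 7, and 1.06% and 0.462% at day 11. From day 5 to day 11 Pfkfb2, which makes the activator of phosphofructokinase, rose by 0.72 (adjusted p = 0.000452). Pfkfb1 was called lower over these days (adjusted p = 0.00602), at no more than 1.75 CPM in any library and at or under the detectable amount in 20 of 27.

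The genes that govern the entry of pyruvate into mitochondria moved in both directions. Pdk1, a kinase that shuts pyruvate dehydrogenase and is a HIF target, rose by 0.51 from day 5 to day 11 (adjusted p = 0.00669) and fell by 0.91 at 7 Gy at day 7 (standard error 0.12, adjusted p = 0.000634). It was the 1 gene of 8 tested in its list that changed at that dose, against 3.75% of all genes that fell and 3.2% that rose. Pdk2 rose by 1.75 from day 5 to day 11 (adjusted p = 0.000399), Pdk3 fell by 0.71 (adjusted p = 0.00192), and Mpc2, a subunit of the mitochondrial pyruvate carrier, fell by 0.40 (adjusted p = 0.00492).

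Of the 16 HIF target genes beside Car9, Vegfa and Bnip3, 12 rose and 1 fell from day 5 to day 7 (12.0% and 9.62% of all genes), and 11 fell and 1 rose at 7 Gy at day 7 (3.75% and 3.2%). At 7 Gy at day 11, 1 fell and 0 rose (0.462% and 1.06%). Their median log2 changes were 1.11, -0.78 and -0.02, against 0.04, 0.01 and 0.01 for all genes. With Car9, Vegfa and Bnip3, the 19 genes of the list summed to 846 to 1042 CPM at day 5 without irradiation. The sum was 2324 to 2645 CPM at day 7 and 1647 to 1805 CPM at day 11. Egln3, the prolyl hydroxylase gene that HIF itself induces, rose by 3.70 from day 5 to day 7 (standard error 0.15, adjusted p = 1.43e-07) and fell by 1.95 at 7 Gy at day 7 (standard error 0.22, adjusted p = 0.000143). Adm, a peptide hormone gene, rose by 2.93 from day 5 to day 11 (standard error 0.25, adjusted p = 2.06e-06), and Higd1a, a mitochondrial protein gene, fell by 1.07 (adjusted p = 1.32e-05). Ddit4, an inhibitor of mTORC1 that also answers to p53, went the other way from most of the list in 2 comparisons. It fell by 0.58 from day 5 to day 7 (standard error 0.13, adjusted p = 0.00731). It rose by 0.79 at 7 Gy at day 7 (standard error 0.14, adjusted p = 0.0033). From day 5 to day 11 it fell by 0.86 (adjusted p = 0.00025). Bhlhe40, a transcriptional repressor, fell by 0.69 at 7 Gy at day 11 (adjusted p = 0.0308), a call lost without mTG12 or mTG14 at 0 Gy or mTG11 or mTG12 at 7 Gy (adjusted p from 0.106 to 0.121).

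Of 9 genes of the HIF pathway itself, Egln3 among them and counted in both lists, 3 rose and 0 fell from day 5 to day 7 (12.0% and 9.62% of all genes), and 3 fell and 0 rose at 7 Gy at day 7 (3.75% and 3.2% of all genes). Their median log2 changes were 0.36 and -0.37. Epas1, which encodes HIF-2α, rose by 1.08 from day 5 to day 11 (standard error 0.20, adjusted p = 0.000959) and fell by 1.21 at 7 Gy at day 7 (adjusted p = 0.0153). That call was lost without mTG11 at 0 Gy (adjusted p = 0.0693) or mTG12 or mTG14 at 7 Gy (adjusted p = 0.0656 and 0.0545). For Hif1a the log2 change at 7 Gy was -0.37 and was not called (adjusted p = 0.267), and HIF-1α is controlled largely at the level of the protein, which was not measured here.

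In the VEGF family, Vegfb rose by 1.01 from day 5 to day 11 (standard error 0.24, adjusted p = 0.00458) and fell by 0.75 at 7 Gy at day 7 (adjusted p = 0.0226). The latter call was lost without mTG12 at 0 Gy (adjusted p = 0.098) or mTG11 or mTG14 at 7 Gy (adjusted p = 0.106 and 0.0562). The co-receptor gene Nrp1 rose by 1.67 at 7 Gy at day 7 (standard error 0.40, adjusted p = 0.0209), and that call was lost without mTG11 or mTG14 at 0 Gy (adjusted p = 0.0838 and 0.066) or mTG12 at 7 Gy (adjusted p = 0.103). Vegfc was at 0 in 18 of 27 libraries.

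**Figure D4:**
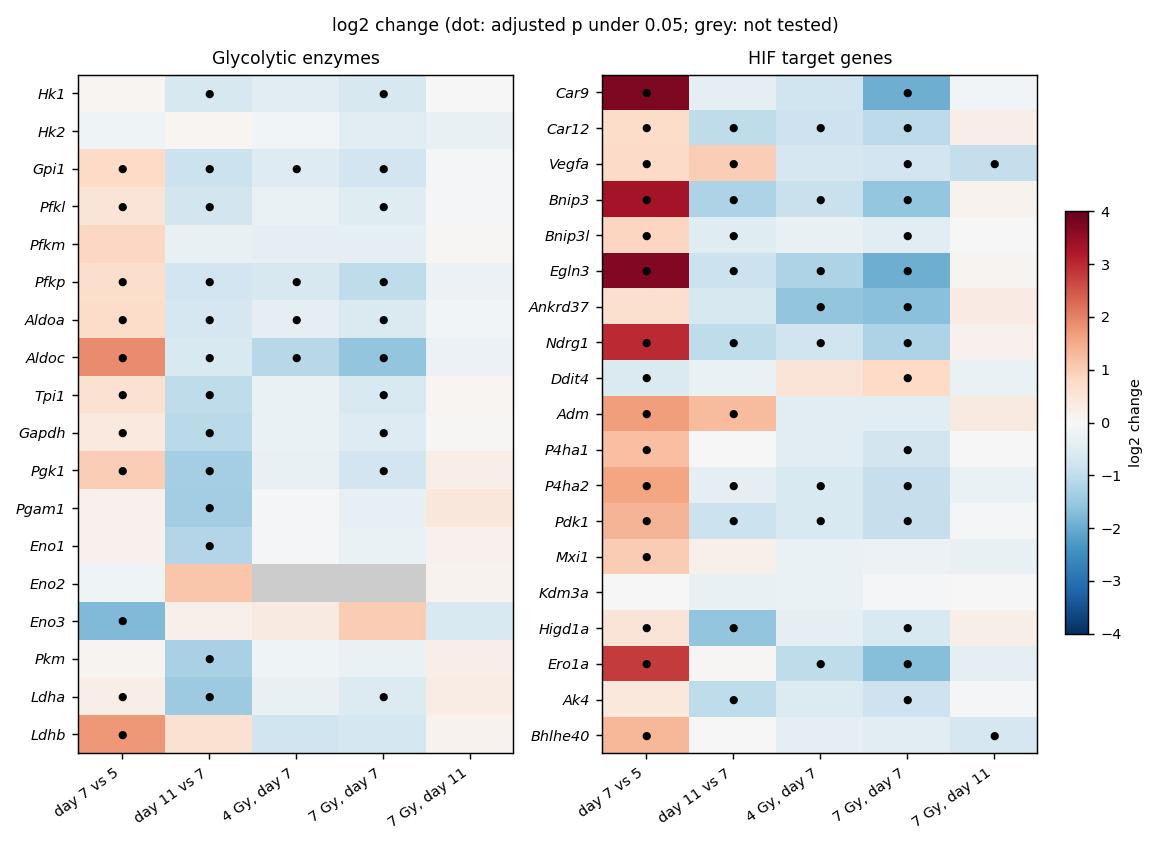
Log2 change (colour, from -4 in blue to 4 in red) of the 18 glycolytic enzyme genes (left) and 19 HIF target genes (right), 1 per line, in 5 comparisons (columns), with a dot for an adjusted p under 0.05 in edgeR and grey where a gene was not tested. The first column is mostly red and the column of 7 Gy at day 7 mostly blue in both lists, the column of 7 Gy at day 11 is pale with dots at Vegfa and Bhlhe40 alone, and Ddit4 has the opposite colours to its neighbours.

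The 10 genes differed in how far they ranged over the 9 groups. The mean CPM of the highest group was 12.7 times that of the lowest for Car9, 8.90 times for Bnip3, 3.32 times for Vegfa and 3.01 times for Ldha, and between 1.69 times (Hk2) and 2.87 times (Pgk1) for the other six. The order of the groups was not shared. The non-irradiated group of day 7 was the highest for Pfkp, Aldoa, Pgk1, Ldha and Bnip3, day 5 for Slc2a1 and Hk2, 2 Gy at day 7 for Eno1 and Car9, and day 11 at 0 Gy for Vegfa. For Car9 and Bnip3 the lowest group was day 5, and the next lowest, 7 Gy at day 7, did not overlap it. In the 4 groups of day 11, neighbours in the order overlapped for Slc2a1, Pfkp, Aldoa, Pgk1, Eno1, Ldha, Car9 and Bnip3, whereas the group at 7 Gy lay below the other 3 without overlap for Vegfa, and for Hk2 overlapped that at 4 Gy alone.

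Across the 27 libraries (log2 of TMM-normalised CPM + 1), which share groups and cultures, the Pearson correlation was above 0.8 for 8 of the 45 pairs of the 10 genes and below 0 for 14. The closest 6 pairs were Eno1 and Ldha (r = 0.97), Aldoa and Pgk1 (r = 0.91), Slc2a1 and Ldha (r = 0.90), Pgk1 with Ldha and with Eno1 (r = 0.88 for each), and Car9 and Bnip3 (r = 0.87). Vegfa ran opposite to Eno1 (r = -0.83). Over the 9529 genes whose mean reached 10 CPM, the 3 most like Car9 were Egln3 (r = 0.94), P4ha2 (r = 0.91) and P4ha1 (r = 0.89), and the most like Bnip3 were Ndrg1 (r = 0.97), Egln3 (r = 0.92) and Trappc6a (r = 0.90). Aldoa was most like Gpi1 (r = 0.97), Pdk1 (r = 0.91) and Pgk1. Pfkp was most like Gpi1 (r = 0.84), Egln1 (r = 0.83) and Aldoa (r = 0.83), and Ldha like Pkm (r = 0.98), Msmo1 (r = 0.98) and Gm4735 (r = 0.98). Slc2a1 was most like Lor (r = 0.93), Tecr (r = 0.92) and Gm14328 (r = 0.92), Vegfa like Nsa2, Ndufa6 and Smad4 (r = 0.93 for each), and Hk2, with the weakest likeness, like Cisd1 (r = 0.78), Gstm1 (r = 0.77) and Pds5b (r = 0.75).

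The counts of Pgk1 and Eno1 shared reads with near-identical copies. The counts of Pgk1-rs7 came to 66.1% of those of Pgk1 (61.8% to 70.1% over libraries) and those of Eno1b to 70.8% of those of Eno1 (66.4% to 75.8%), while the Aldoa copies Aldoart1 and Aldoart2 came to under 1% of Aldoa. The genes most like Pgk1 were Gm5537, Pgk1-rs7 and Gm7466 (r = 1.00 for each), and those most like Eno1 were Eno1b (r = 1.00), Gm4735 (r = 1.00) and Gm5855 (r = 0.99), so the levels of Pgk1 and Eno1 alone are uncertain. With the counts of Pgk1-rs7, Eno1b, Aldoart1 and Aldoart2 added, no call on the 10 genes changed. Those of Gm5537, Gm7466, Gm4735 and Gm5855 were not added. Slc2a1, Pfkp and Car9 had whole counts in 27 of 27 libraries. Vegfa had them in 24, Hk2 in 21, Aldoa in 3, Ldha in 2, Bnip3 in 1, and Pgk1 and Eno1 in 0. Ldha and Bnip3 thus shared reads with other genes in most libraries. They had no copy among those added, so the effect of this sharing on their levels was not tested. Of the 10 genes, all but Pgk1 and Eno1 overlap an annotated gene on the opposite strand, and whether the counting used strand is not given in the sources used here.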

How the data were processed

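The 27 libraries were prepared with Smart3SEQ, which reads the 3′ ends of polyadenylated RNA, and the authors deposited 1 table of estimated counts by gene symbol without normalization, in which some values are fractions because reads were shared between genes (56.3% of the nonzero values were whole). The submitters' processing notes name STAR, edgeR and GRCm39 without roles, and the counting tool, annotation and use of molecular identifiers are not given in the sources used here. Libraries were placed in groups by day and dose. The labels number mice 1 to 3, while the columns give culture identifiers that could not be matched to these numbers. The 10 genes and all gene lists were chosen with earlier results of these data known. CPM was each count over the sum of its library. The design had assumed whole counts, so counts were rounded for edgeR 4.0.16 (R 4.3.3): TMM factors, genes with at least 10 counts summed over a fit, quasi-likelihood test, Benjamini-Hochberg adjustment over all genes, threshold 0.05. The standard error is the log2 change divided by the square root of F. Days were compared in 1 fit of 9 libraries, doses in 1 fit of 12 per day, with dose as groups or as a slope per Gy, and the difference in the 7 Gy response in 1 fit of 24. The fits were tested on simulated counts. Beside the 10 genes and their copies, the text names at most the 2 largest called rises and falls of each pathway list for day 11 against day 5 and for 7 Gy at each day, the 3 genes most like each of the 10, and markers near 0. Slc16a3, Egln3 and Ddit4 at day 7 against day 5, Hif1a, Slc2a3 and Vegfc were added after their values were seen.

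Same-culture libraries deviated together from their group means: the smallest correlation across genes was 0.13 over days, 0.24 over doses at day 7, 0.29 at day 11 and 0.15 over both days, with means for other pairs from -0.21 to -0.13, so the culture pairs the libraries and was used as a replicate block in an alternative fit. No replicate pair agreed within sampling noise (smallest chi-square 3.39 per degree of freedom over 27 pairs), so none was treated as a repeated deposit. Other alternatives were DESeq2 1.42.0, no TMM factors, filters of at least 1 count or a mean of 10 counts, copies added, only the compared groups, TMM-normalized CPM for levels, and leaving out each library in turn. Gene coordinates are from the GENCODE annotation of GRCm39. Python 3.11.15 was used for tables and figures.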

Additional observations from a re-analysis of the deposited data

Results flagged for a closer look

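For 7 of the 10 genes the response to 7 Gy differed between the days by the interaction test in edgeR, which is what brought them here. The log2 change at day 11 minus that at day 7 was 1.03 for Slc2a1, 0.80 for Pfkp, 0.51 for Aldoa, 1.05 for Pgk1, 0.90 for Ldha, 1.88 for Car9 and 1.74 for Bnip3, each with a fall at day 7 and no call at day 11. Proliferation markers differed in the same direction, by a median of 1.97 with 6 of 6 called, against 2.2% of all genes. The part of proliferation in the differences of the 7 genes was not tested. The groups of 3 libraries were too small to test single libraries as outlying.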

How the results depend on the processing

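The log2 changes that the text gives for the 10 genes kept their direction under every alternative (DESeq2, no TMM factors, other filters, the replicate block, copies added, only the compared groups) except for 2 that were not called either way: without TMM factors Slc2a1 from day 5 to day 7 was -0.057 in place of 0.10, and Aldoa from day 5 to day 11 was -0.070 in place of 0.08. Of these changes under the alternatives, 17 gained a call, 5 lost one and 539 kept both direction and call. Not given with the results were, without TMM factors, Hk2 from day 5 to day 11 (gained, adjusted p = 0.0498) and its slope at day 7 (lost, 0.062), at 4 Gy and day 7 Ldha with DESeq2 (gained, 0.0456), Car9 with at least 1 count (gained, 0.0136), Aldoa with only the compared groups (lost, 0.0548) and Vegfa with DESeq2, at least 1 count and only the compared groups (gained), Hk2 at 7 Gy and day 7 with either filter and only the compared groups (gained), and the Eno1 difference between days with DESeq2 (gained, 0.0404) and only the compared groups (gained, 0.0382). In the comparisons given by counts of the 10 genes (2 Gy at both days but for Car9 at day 11, 4 Gy at day 11, and the day 11 slope but for Vegfa), 7 uncalled values turned in sign under these alternatives and 30 when 1 library was left out, and Vegfa at 2 Gy and day 7 gained a call with at least 1 count (adjusted p = 0.00618). The replicate block (culture) gave -0.30 for Pgk1 and -0.66 for Vegfa at 4 Gy, -0.43 for Hk2 at 7 Gy, -0.04 per Gy for Eno1 and 0.48 for the Eno1 difference between days, all gained calls, and changed no other call on the 10 genes. Leaving out 1 library turned the sign of 5 uncalled changes among those the text gives: Pfkp from day 5 to day 11 ranged from -0.10 to 0.0050, Eno1 at 4 Gy and day 7 from -0.12 to 0.020, Slc2a1 at 7 Gy and day 11 from -0.13 to 0.12, Car9 in the same comparison from -0.33 to 0.13, and the Vegfa difference between days from -0.36 to 0.028.

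Counts over all genes moved more. At day 7 they were, for 2 Gy, 24 (DESeq2 59, at least 1 count 404, block 139, only the compared groups 7, leaving out 1 library 8 to 24), for 4 Gy 315 (at least 1 count 1263, block 1010, leaving out 1 library 125 to 229) and for 7 Gy 1345 (at least 1 count 2211, block 2206, leaving out 1 library 705 to 1001). At day 11 they were, for 2 Gy, 0 (DESeq2 1, at least 1 count 267, block 72), for 4 Gy 1 (DESeq2 37, at least 1 count 465, block 238, only the compared groups 0, leaving out 1 library 0 to 1), for 7 Gy 302 (at least 1 count 1205, block 1296, leaving out 1 library 60 to 165) and for the slope 499 (DESeq2 802, block 1353, leaving out 1 library 287 to 626). The count for the difference between days, 660, was 1234 with at least 1 count and 1153 with the block. The cause of these moves was not tested, beyond the fewer samples of the fits without a library. On the TMM scale 4 of the mean levels moved by more than 1 SD and 86 by less. Depth limits mainly Car9 at day 5, where 2 to 4 counts per library set its fold.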
